A study of Mus musculus with 10 samples.

Results

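The 10 CC chemokine genes that draw monocytes, macrophages and related myeloid cells were followed in resected CT26 tumors. They are Ccl2, Ccl3, Ccl4, Ccl6, Ccl7, Ccl8, Ccl9, Ccl11, Ccl12 and Ccl24, taken by gene name from a table of 36009 genes, and each matched 1 row. CT26 is a mouse colorectal carcinoma line, grown under the skin of female wild-type BALB/c mice. RNA was taken from tissue resected before any treatment, after which a hydrogel loaded with poly(I:C), a synthetic double-stranded RNA, was laid on the tumor that remained. The 6 responders were mice whose tumors later regressed completely, and the 4 non-responders were mice whose tumors grew without delay. No group differed in strain, sex, genotype or treatment at the time of sampling, and all tumors came from 1 cell line. Totals were 29065126 to 38042544 estimated counts per responder library and 23374649 to 32986456 per non-responder library. Expression is given as CPM, counts scaled to a common library size after TMM normalization.

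CC chemokines are small secreted proteins that bind G protein-coupled receptors on leukocytes and guide them along a gradient. CCR2 ligands release monocytes from the bone marrow and bring them into inflamed tissue and tumors, CCR1 ligands act on monocytes, macrophages and lymphocytes, and the eotaxins act through CCR3 on eosinophils. Macrophages are themselves a main source of many of these ligands.

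Responders did not have a uniformly higher level of these chemokines. Ccl12, a CCR2 ligand, was the 1 gene of the 10 that passed the test, and it was lower in responders. In bulk tumor, fewer cells of a type and less RNA per cell cannot be told apart. Ccl8, Ccl3 and Ccl4 had the largest positive estimates, and the eotaxins Ccl11 and Ccl24 had negative ones, none past the threshold by edgeR. By edgeR's quasi-likelihood test with Benjamini-Hochberg adjustment over 16041 genes, 1 of 10 chemokines had an adjusted p under 0.05, where 8.06% of all genes tested did (3.35% lower and 4.71% higher in responders). The count of 1 is thus near the share over all genes. At an unadjusted p under 0.05 there were 6 of 10, where 29.1% of all genes were, and at an adjusted p under 0.1 there were 4 (Ccl3, Ccl4, Ccl8 and Ccl12), where 18.7% were. Estimates were higher in responders for 6 (48.2% of all genes) and lower for 4, with a median log2 fold change of 0.22 against -0.0086 over all genes tested, and a median absolute log2 fold change of 0.39 against 0.13. All 10 genes passed the filter on low counts, with 70 to 28020 estimated counts in a tumor.

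The chemokine genes lie in 2 groups on chromosome 11, with Ccl24 apart on chromosome 5 (GRCm38, GENCODE annotation). Ccl2 (82035571 to 82037453), Ccl7 (82045712 to 82047525), Ccl11 (82057823 to 82062955), Ccl12 (82101845 to 82103400) and Ccl8 (82115185 to 82116799) follow each other on the plus strand. Further on, 1456119 bases after Ccl8, come Ccl9 (83572919 to 83578636), Ccl6 (83587882 to 83593087) and Ccl3 (83647844 to 83649355) on the minus strand and Ccl4 (83662584 to 83664683) on the plus strand. Ccl24 spans 135569937 to 135573049 on the minus strand. Ccl12 and Ccl8, whose estimates had opposite signs, are neighbours 11784 bases apart. The promoters of these 2 genes and of Ccl3 are shown because they belong to the called gene, to its abundant neighbour and to a gene of the other group. They are the 250 bases before the start from RefSeq (build GRCm38.p6), written 5′ to 3′ on the strand of the gene, with matches to a TATA box or a PU.1 site in capitals.
Ccl12, plus strand, chr11:82101595-82101844: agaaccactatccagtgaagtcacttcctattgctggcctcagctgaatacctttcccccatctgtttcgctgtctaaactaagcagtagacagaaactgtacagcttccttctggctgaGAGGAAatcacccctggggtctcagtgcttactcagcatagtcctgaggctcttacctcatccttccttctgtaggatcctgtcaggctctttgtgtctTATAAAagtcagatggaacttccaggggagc
Ccl8, plus strand, chr11:82114935-82115184: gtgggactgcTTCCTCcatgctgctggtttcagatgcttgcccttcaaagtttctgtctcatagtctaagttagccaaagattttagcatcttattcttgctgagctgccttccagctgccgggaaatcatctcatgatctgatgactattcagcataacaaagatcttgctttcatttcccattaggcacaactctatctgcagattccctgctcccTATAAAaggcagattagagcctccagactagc
Ccl3, minus strand, chr11:83649379-83649628: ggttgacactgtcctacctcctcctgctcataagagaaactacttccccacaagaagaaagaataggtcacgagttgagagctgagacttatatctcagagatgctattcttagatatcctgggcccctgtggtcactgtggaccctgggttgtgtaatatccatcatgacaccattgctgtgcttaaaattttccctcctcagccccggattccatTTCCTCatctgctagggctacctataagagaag

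Promoters of 5 of the 10 genes were matched, namely Ccl3, Ccl6, Ccl8, Ccl9 and Ccl12, and Ccl2, Ccl4, Ccl7, Ccl11 and Ccl24 were not. The letters searched on both strands were TATAAA for the TATA box, GAGGAA for PU.1, a factor of myeloid cells, TTC and GAA parted by 4 bases for STAT6, GAAA repeated after 2 bases for the interferon-stimulated response element (ISRE) and TGANTCA for AP-1, with the NF-kB site searched by its consensus. Ccl12 and Ccl8 shared a TATA box at almost the same place, starting 31 and 32 bases before the start. TATAAA was in 3 of the 5 promoters and in 12.4% of 32841 promoters of the same length. GAGGAA was in 3 of the 5 and in 23.3% of all, 125 to 130 bases before the start of Ccl12, and on the opposite strand 235 to 240 bases before that of Ccl8 and 28 to 33 bases before that of Ccl3. Only the Ccl9 window held an AP-1 match and an NF-kB match, which were in 6.75% and 7.25% of all promoters. STAT6 and ISRE letters were in 0 of the 5 windows and in 5.85% and 2.98% of all. These matches are descriptions of letters. Ccl12 and Ccl8 were alike in the place and strand of the TATA box, and differed in those of the PU.1 match.

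Ccl8 supplied most of the chemokine transcripts, and its level varied most between tumors, by 6.35-fold from the lowest to the highest. To compare levels between genes, CPM were divided by the kilobases of annotated exon. On this scale Ccl8 was at 804.0 ± 342.4 CPM per kilobase (SD, n = 10 tumors), followed by Ccl12 at 103.5 ± 15.5 and Ccl2 at 77.8 ± 19.0. Ccl8 was above Ccl12 in 10 of 10 tumors, while Ccl12 was above Ccl2 in 7. The 3 exceptions were responders 1, 2 and 5, and all 4 non-responders had Ccl12 above Ccl2 (118.5 against 65.4 CPM per kilobase on average, and 93.5 against 86.2 in responders). Next came Ccl7 at 36.4 ± 6.56, Ccl6 at 33.8 ± 9.35 and Ccl24 at 25.0 ± 9.24 CPM per kilobase. Ccl2 was above Ccl7 in 10 of 10 tumors, and Ccl7 above Ccl6 in 7. The lowest were Ccl4 at 9.50 ± 3.59, Ccl9 at 8.28 ± 2.61, Ccl3 at 8.08 ± 2.87 and Ccl11 at 7.46 ± 2.90, whose order differed between the groups. Responder means were 11.4 for Ccl4, 9.56 for Ccl3, 7.97 for Ccl9 and 6.05 CPM per kilobase for Ccl11, and non-responder means were 9.56 for Ccl11, 8.75 for Ccl9, 6.59 for Ccl4 and 5.86 for Ccl3.

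**Figure D1:**
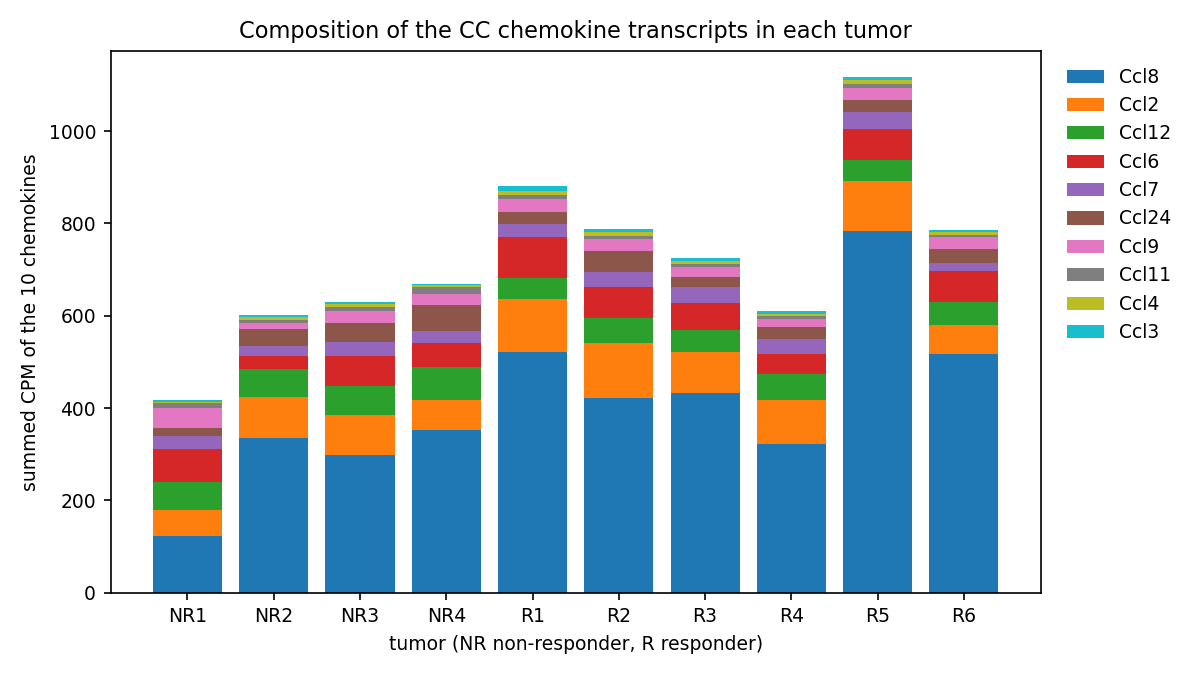
Summed CPM of the 10 chemokines in each tumor (vertical axis), stacked by gene, for non-responders 1 to 4 and responders 1 to 6. Ccl8 was the largest part in every tumor, from 29.5% in non-responder 1 to 70.1% in responder 5.

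By share of the summed CPM of the 10 genes, which is not corrected for length, Ccl8 made up 52.9% to 70.1% in responders and 29.5%, 55.6%, 47.5% and 52.6% in non-responders 1 to 4. The sum ranged from 609.4 to 1118 CPM in responders and was 418.2, 602.3, 630.6 and 668.8 CPM in non-responders 1 to 4. The plot of chemokine composition shows that the sum follows Ccl8, with responder 5 highest and non-responder 1 lowest.

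The estimates of the CCR2 ligands Ccl2, Ccl7 and Ccl12 differed in sign, and the difference between these genes was not tested. Ccl12 (ENSMUSG00000035352) was at 44.4 to 57.3 CPM in responders, median 49.3, and at 59.8, 61.0, 63.1 and 70.7 CPM in non-responders 1 to 4. All 6 responders lay below all 4 non-responders, and the spread within each group was small. Mean levels were 50.2 ± 4.83 CPM (SD, n = 6) and 63.7 ± 4.90 CPM (SD, n = 4), or -0.34 ± 0.07 (SE) as log2 fold change (adjusted p = 0.031 by edgeR). Groups that do not overlap were found for this 1 gene of 10, where 10.4% of all genes tested had them, 4.55% with responders lower and 5.84% with responders higher. That count, too, is near the share over all genes. The direction was the same in all 15 alternative fits, but the call was not: with responder 3, responder 5, non-responder 1, non-responder 3 or non-responder 4 left out the edgeR adjusted p was 0.0683, 0.0525, 0.0587, 0.0573 and 0.0856.

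Ccl2 (ENSMUSG00000035385), the main monocyte chemoattractant, was at 63.5 to 120.4 CPM in responders, median 100.9, and at 56.9, 89.6, 84.6 and 66.4 CPM in non-responders 1 to 4. Of the responders, 4 lay above all non-responders, and responder 6 lay among the low non-responders. The log2 fold change was 0.40 (SE 0.18, adjusted p = 0.160 by edgeR), which did not pass. Ccl7 (ENSMUSG00000035373), which binds CCR2 and other receptors, was at 19.0 to 36.0 CPM in responders, median 32.1, and at 28.3, 23.1, 29.9 and 26.8 CPM in non-responders. Its groups overlapped at both ends, since responder 6 was the lowest of the 10 tumors and 4 other responders were above every non-responder (log2 fold change 0.17 ± 0.15 SE, adjusted p = 0.488 by edgeR).

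Ccl8 (ENSMUSG00000009185), which in mice acts on CCR8, was at 322.5 to 784.0 CPM in responders, median 474.5, and at 123.5, 334.6, 299.4 and 351.9 CPM in non-responders 1 to 4. Responder 5 and non-responder 1 were the extremes, and responder 4 fell below non-responders 2 and 4. Means were 499.9 ± 157.2 CPM (SD, n = 6) and 277.3 ± 104.9 CPM (SD, n = 4), or 0.85 ± 0.30 (SE) as log2 fold change (adjusted p = 0.0882 by edgeR). With each tumor left out in turn the estimate stayed between 0.61 and 0.99 and did not pass in any of the 10 fits (edgeR adjusted p of 0.0607 to 0.152). DESeq2 called Ccl8 at an adjusted p of 0.0432.

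**Figure D2:**
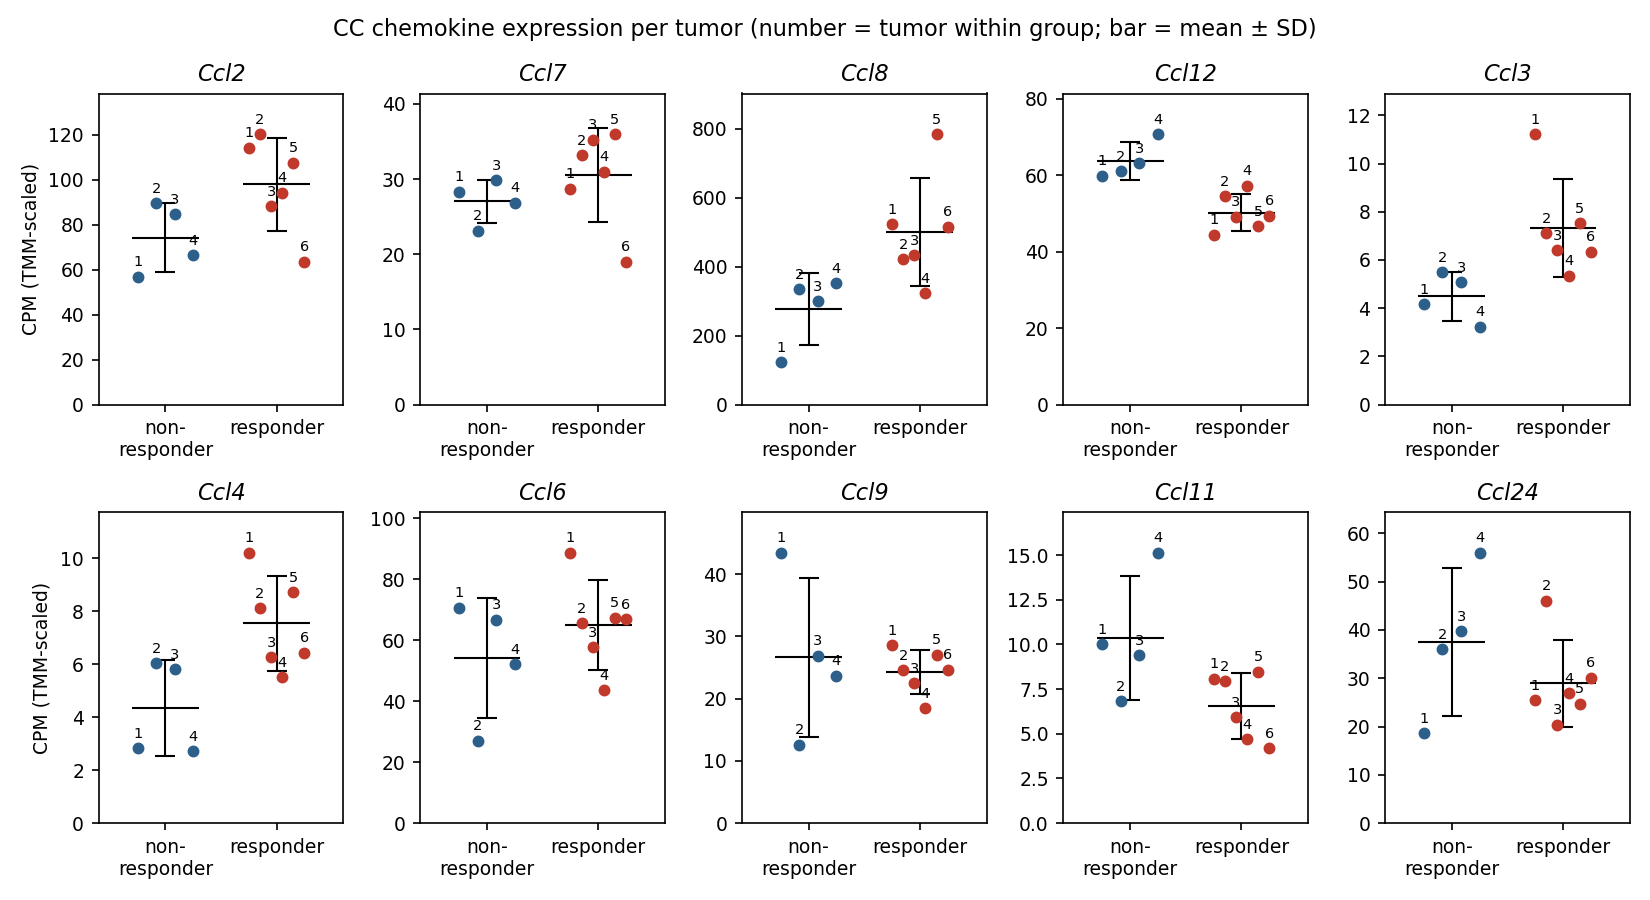
CPM of each chemokine (vertical axes, each from 0) in 4 non-responder and 6 responder tumors, with the tumor number beside each point and the mean ± SD as bars. Ccl12 is the gene whose groups do not overlap, with all responders at or below 57.3 CPM and all non-responders at or above 59.8 CPM.

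Because Ccl8, Ccl2 and Ccl7 had estimates opposite in sign to that of Ccl12, their ratios to Ccl12 within a library, which do not depend on scaling to depth, were read out. Ccl11, the gene just before Ccl12, had a negative estimate as Ccl12 did. These pairs were chosen after their values were seen, so the ratios are given with no test. Estimated Ccl8 counts were 5.63 to 16.8 times those of Ccl12 in responders, median 9.63, and 2.06, 5.49, 4.75 and 4.98 times in non-responders 1 to 4. All 6 responders were above all non-responders, responder 4 by a narrow margin over non-responder 2. Because the groups did not overlap for Ccl12 alone, this ratio in part restates that result. The Ccl2 to Ccl12 ratio was 1.29 to 2.57 in responders, median 2.003, and 0.951, 1.47, 1.34 and 0.939 in non-responders, with responder 6 inside the non-responder range. The Ccl7 to Ccl12 ratio behaved similarly, at 0.385 to 0.772 in responders and 0.379 to 0.474 in non-responders, again with responder 6 inside that range. The Ccl6 to Ccl9 ratio was 2.37 to 3.11 in responders and 1.63 to 2.48 in non-responders, with responder 4 inside that range.

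**Figure D3:**
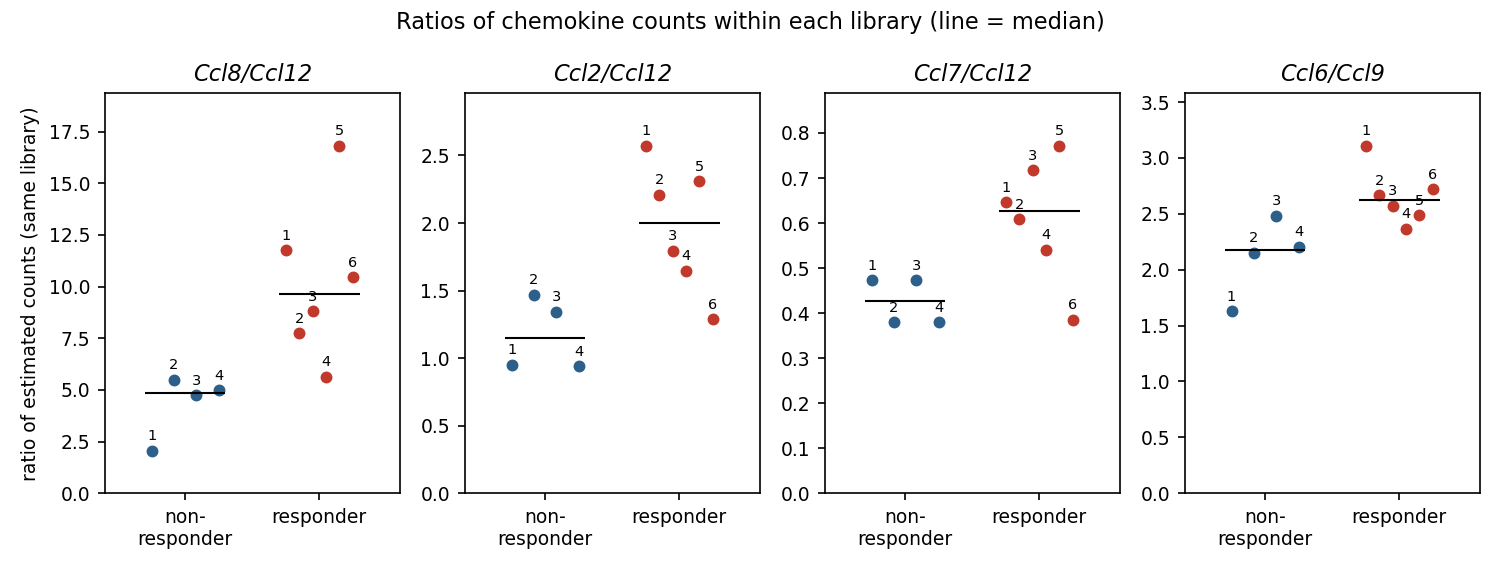
Ratios of estimated counts of 2 chemokines in the same library (vertical axes, each from 0), with each tumor as a numbered point and the group median as a line. The Ccl8 to Ccl12 ratio was at least 5.63 in responders and at most 5.49 in non-responders, and the other 3 ratios overlapped. The groups did not overlap for Ccl12 alone either.

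Ccl3 and Ccl4, neighbouring genes of the macrophage inflammatory proteins, moved together from tumor to tumor. Ccl3 (ENSMUSG00000000982) was at 5.35 to 11.2 CPM in responders, median 6.76, and at 4.16, 5.49, 5.07 and 3.23 CPM in non-responders 1 to 4. Of the responders, 5 lay above all non-responders, and responder 4 lay just below non-responder 2 (log2 fold change 0.71 ± 0.21 SE, adjusted p = 0.0607 by edgeR). Ccl4 (ENSMUSG00000018930) was at 5.51 to 10.2 CPM in responders, median 7.28, and at 2.83, 6.05, 5.81 and 2.72 CPM in non-responders. Non-responders 1 and 4 lay far below the rest, and responder 4 lay below non-responders 2 and 3 (log2 fold change 0.80 ± 0.27 SE, adjusted p = 0.0783 by edgeR). Both estimates were above 0 in all 15 alternative fits. Without non-responder 2 both passed (edgeR adjusted p = 0.0473 for Ccl3 and 0.0442 for Ccl4), as Ccl3 did without responder 4 (edgeR adjusted p = 0.0405). DESeq2 with all tumors called both (adjusted p = 0.0122 for Ccl3 and 0.0196 for Ccl4). The ratio of Ccl3 to Ccl4 counts was 0.862 to 1.10 in responders and 0.873 to 1.47 in non-responders.

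Ccl6 and Ccl9, mouse CCR1 ligands made by myeloid cells, showed no difference past the threshold. Ccl6 (ENSMUSG00000018927) was at 43.6 to 88.8 CPM in responders, median 66.3, and at 70.7, 27.1, 66.7 and 52.2 CPM in non-responders 1 to 4. Non-responder 2 was the lowest tumor and the other non-responders lay within the responder range (log2 fold change 0.26 ± 0.25 SE, adjusted p = 0.508 by edgeR). With each tumor left out in turn the estimate ranged from 0.04, without non-responder 2, to 0.43, without non-responder 1. Ccl9 (ENSMUSG00000019122) was at 18.4 to 28.5 CPM in responders, median 24.6, and at 43.4, 12.6, 26.9 and 23.7 CPM in non-responders. Non-responder 1 was the highest and non-responder 2 the lowest of all 10 tumors, and the estimate of -0.13 (SE 0.26, adjusted p = 0.776 by edgeR) turned to 0.21 without non-responder 1 (edgeR adjusted p = 0.581). Of the 31-base runs in Ccl9 transcripts, 3.98% also occurred in transcripts of other genes, against 1.02% for Ccl6 and at most 0.1% for the other 8 genes, and 0 runs were shared between chemokines on the list.

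The eotaxins Ccl11 and Ccl24, ligands of CCR3, had negative estimates. Ccl11 (ENSMUSG00000020676) was at 4.20 to 8.48 CPM in responders, median 6.92, and at 10.01, 6.83, 9.41 and 15.1 CPM in non-responders 1 to 4. Non-responders 1, 3 and 4 lay above all responders and non-responder 2 lay among them (log2 fold change -0.66 ± 0.25 SE, adjusted p = 0.104 by edgeR). DESeq2 called Ccl11 at an adjusted p of 0.0481. Ccl24 (ENSMUSG00000004814) was at 20.4 to 46.1 CPM in responders, median 26.2, and at 18.6, 36.0, 39.7 and 56.0 CPM in non-responders. Non-responder 1 was the lowest and non-responder 4 the highest of the 10 tumors, so the groups overlapped throughout (log2 fold change -0.38 ± 0.28 SE, adjusted p = 0.387 by edgeR). Without non-responder 4 the estimates were -0.42 for Ccl11 and -0.12 for Ccl24 (edgeR adjusted p = 0.296 and 0.818).

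**Figure D4:**
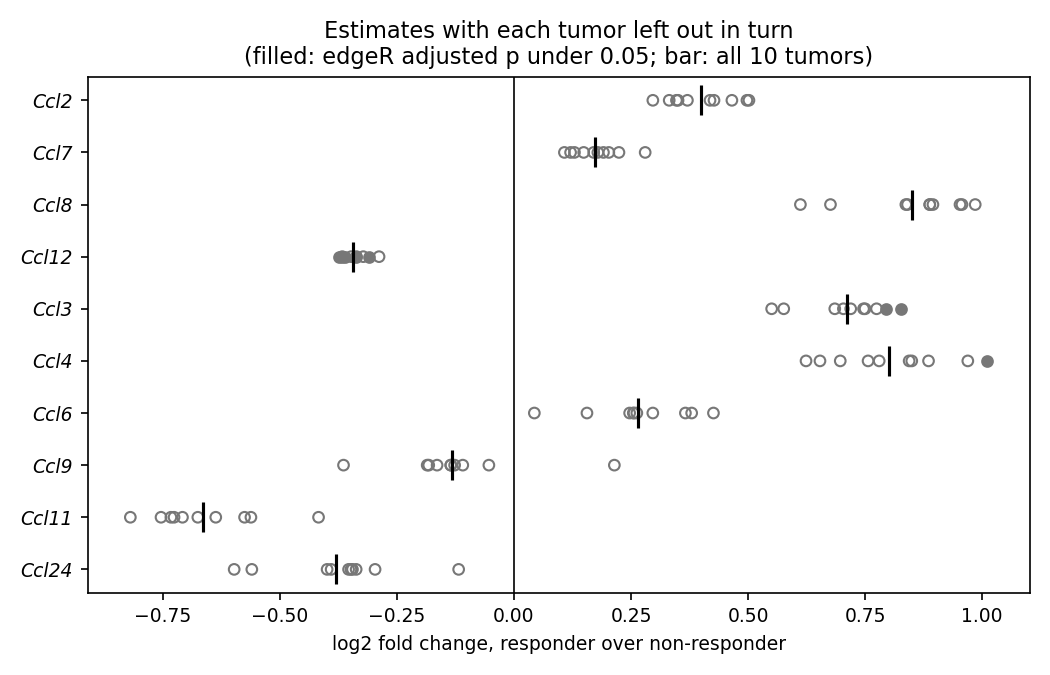
Log2 fold change of responders over non-responders (horizontal axis) for each chemokine with each of the 10 tumors left out in turn (circles, filled where the edgeR adjusted p was under 0.05), and with all 10 tumors (bar). Ccl12 stayed between -0.37 and -0.29, while Ccl9 crossed 0.

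Receptors for these ligands had mostly higher estimates in responders. Of 7 receptor and scavenger genes, 1 passed the test, higher in responders, where 4.71% of all genes tested did, and 6 of 7 estimates were positive. Ccr1 (ENSMUSG00000025804, chromosome 9, 123962124 to 123968692), which binds Ccl3, Ccl6 and Ccl9, was at 108.6 to 134.3 CPM against 72.3, 104.4, 97.3 and 88.1 CPM. Every responder was above every non-responder (log2 fold change 0.35 ± 0.10 SE, adjusted p = 0.0481 by edgeR). Over the 10 fits with 1 tumor left out, Ccr1 passed in 2, those without responder 4 or non-responder 2, with an adjusted p of up to 0.114 by edgeR in the others.

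Ccr2 (ENSMUSG00000049103), the receptor of Ccl2, Ccl7 and Ccl12 and a mark of inflammatory monocytes, was at 47.2 to 86.9 CPM in responders, median 65.8, and at 30.5, 52.5, 47.5 and 42.6 CPM in non-responders 1 to 4. Of the responders, 5 were above all non-responders and responder 1 was not (log2 fold change 0.61 ± 0.19 SE, adjusted p = 0.0638 by edgeR, and 0.0473 without non-responder 2). Ccr3, the eotaxin receptor, was low and had the 1 negative estimate among the receptors, at 2.09 ± 0.893 CPM (SD, n = 6) against 2.97 ± 0.622 CPM (SD, n = 4, log2 fold change -0.51 ± 0.29 SE, adjusted p = 0.273 by edgeR). Ccr8, the receptor of mouse Ccl8, was at 1.61 ± 0.374 CPM (SD, n = 6) against 1.37 ± 0.306 CPM (SD, n = 4, log2 fold change 0.23 ± 0.22 SE, adjusted p = 0.510 by edgeR). The estimates for Ccrl2, an atypical receptor, and for the scavengers Ackr1 and Ackr2 were 0.44, 0.48 and 0.22 (edgeR adjusted p = 0.284, 0.159 and 0.680), and that of Ackr2 turned to -0.078 without non-responder 4.

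**Figure D5:**
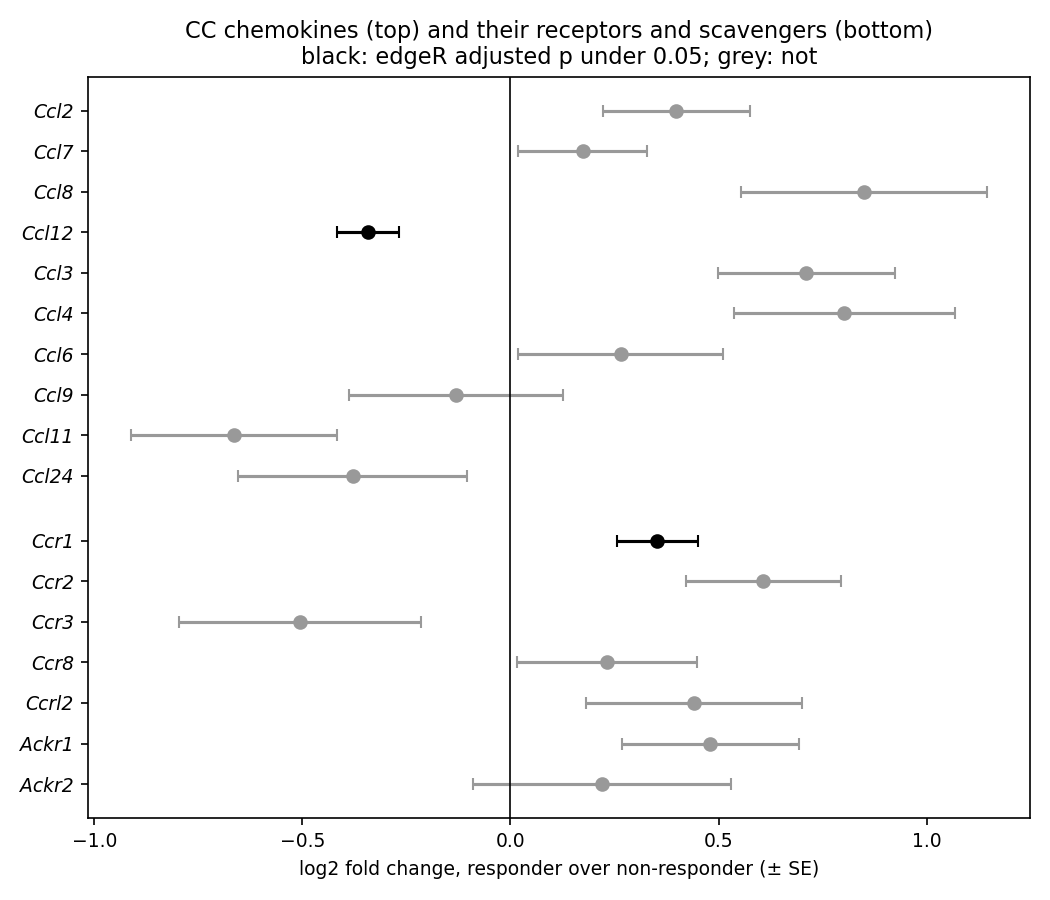
Log2 fold change of responders over non-responders (horizontal axis, ± SE) for the 10 chemokines and for 7 receptors and scavengers, in black where the edgeR adjusted p was under 0.05. Ccl12 was lower and Ccr1 was higher in responders.

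Among 10 other CC chemokines, 7 could be tested and 0 passed by edgeR, where 8.06% of all genes tested did. At an unadjusted p under 0.05 there were 2 of 7, where 29.1% of all genes were, so that count is near the share over all genes. Ccl5, a chemokine made by lymphocytes and macrophages, had a log2 fold change of 0.91 ± 0.29 SE (adjusted p = 0.0695 by edgeR), and the lymphoid chemokine Ccl21a, at 0.0 to 1.78 CPM, one of 2.57 (SE 0.94, adjusted p = 0.102 by edgeR). DESeq2 called Ccl5 at an adjusted p of 0.0365. Among 15 cytokines and transcription factors that induce such chemokines or the cells that make them, 14 could be tested and 3 passed, all higher in responders with groups that did not overlap, where 4.71% of all genes tested were called higher and 5.84% did not overlap in that direction. These were the macrophage growth factor Csf1 (473.6 CPM against 365.0 CPM on average, log2 fold change 0.38, SE 0.07, adjusted p = 0.0264 by edgeR), Irf5, a transcription factor of inflammatory macrophages (0.43, SE 0.08, adjusted p = 0.0259 by edgeR), and Spi1, which encodes PU.1 (0.47, SE 0.10, adjusted p = 0.0318 by edgeR). Leaving out 1 tumor ended the call of all 3 for responder 3 and non-responders 1 and 4, of Csf1 and Irf5 for responder 2, of Spi1 for responder 5, and of Csf1 and Spi1 for non-responder 3, with an adjusted p of up to 0.0797 by edgeR. Tnf, which induces several of these chemokines, had an estimate of 0.67 (SE 0.23, adjusted p = 0.0867 by edgeR).

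Markers of some cell types in the resected piece were higher in responders, with the most calls among macrophage markers. Median log2 fold changes were 2.17 for adipocyte, 1.27 for mast cell, 1.03 for T and NK cell and 1.025 for skeletal muscle markers. That of the macrophage markers was 0.56. Of 8 macrophage markers, 5 (Adgre1, Cd68, C1qa, C1qb and C1qc) passed as higher in responders, and the list summed to 2919 to 4343 CPM in responders and 2052 to 2761 CPM in non-responders, without overlap. As above, 4.71% of all genes tested were called higher. The markers Csf1r, Mertk and Mrc1 did not pass, with log2 fold changes of 0.24, 0.03 and -0.13 (edgeR adjusted p = 0.130, 0.888 and 0.494). Each of the 5 had its lowest value in non-responder 1 and its highest in responder 5, and each lost its call without responder 3, non-responder 1 or non-responder 4 (adjusted p of up to 0.0923 by edgeR). C1qb passed in 3 of the 10 fits with 1 tumor left out, Adgre1 and C1qa in 5, and Cd68 and C1qc in 7. Of 7 monocyte markers, 5 could be tested and Ly6c2 passed as higher, with sums of 228.5 to 285.9 CPM against 194.3 to 247.2 CPM. Ly6c2 passed in 3 of the 10 fits with 1 tumor left out (not without responders 1, 2, 3 or 5 or non-responders 1, 3 or 4, adjusted p of up to 0.101 by edgeR). Ms4a4c and Plac8 had estimates of 0.69 and 0.37 (edgeR adjusted p = 0.0638 and 0.137), and F13a1 and Vcan of -0.05 and 0.05. All responders were above all non-responders for Ly6c2 and Ms4a4c, as for 5.84% of all genes tested. Mast cell and skeletal muscle markers also had 2 calls each, of 5 and 4 genes, all higher in responders, with sums of 49.4 to 172.9 CPM against 26.2 to 56.96 CPM for mast cells and of 315.9 to 1038 CPM against 287.0 to 373.3 CPM for muscle. These calls were Cma1 and Kit for mast cells and Acta1 and Ckm for muscle, and limma-voom left Acta1 alone (adjusted p = 0.0866 for Cma1, 0.0510 for Kit and 0.0837 for Ckm). With 1 tumor left out Cma1 and Acta1 passed in 4 of 10 fits and Kit and Ckm in 2, and none passed without responders 2 or 3 or non-responders 1, 3 or 4 (adjusted p of up to 0.112 by edgeR). The lists for T and NK cells, adipocytes, fibroblasts, endothelial cells, neutrophils and eosinophils had 0 calls by edgeR. Of all genes tested, 29.1% had an unadjusted p under 0.05 by edgeR. In these lists 5, 3, 0, 0, 1 and 0 genes did, of 6, 3, 5, 4, 4 and 2 tested. Their sums were 112.0 to 234.3 CPM in responders and 67.3 to 122.8 CPM in non-responders for T and NK cells, 2.53 to 16.0 against 0.565 to 5.67 for adipocytes, 3384 to 3948 against 2866 to 4210 for fibroblasts, 87.1 to 142.5 against 69.97 to 105.8 for endothelial cells and 68.4 to 137.4 against 51.4 to 111.1 for neutrophils. Eosinophil markers were near 0, with sums of 0.757 to 2.15 CPM and 1.13 to 2.65 CPM and Epx under 3 counts in every tumor. Ccl12 was lower in responders, in which the summed macrophage markers were higher, with 7 of 8 estimates positive. The part of these cell types in the chemokine values was not tested.

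The label of colorectal carcinoma was checked against 7 epithelial and intestinal markers. They were low, with Epcam at 0.121 to 0.709 CPM and Krt18 at 0.0 to 0.0937 CPM over the 10 tumors, and only Cdh1 exceeded 2 CPM. No CT26 cells grown alone were compared, so these levels cannot decide the label. The list summed to 3.50 to 8.18 CPM in responders and 7.07 to 9.49 CPM in non-responders. Only 3 of the 7 genes could be tested, all with estimates lower in responders. Of these, 0 passed by edgeR and 2 had an unadjusted p under 0.05, where 29.1% of all genes tested did.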

How the data were processed

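PolyA RNA from 10 tumors was sequenced as paired ends. The authors estimated transcript abundance with Kallisto and used tximport for gene totals (mm10, GRCm38). The deposited table holds expected counts (not whole for 35.0% of values at a tolerance of 0.001) for 36009 genes. The annotation release, tximport scaling option and strand setting are not given in the sources used here. Rows without a gene name held 1.04% to 1.23% of counts and were kept.

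Rounded counts were fitted by edgeR 4.0.16 under R 4.3.3 (filterByExpr with a minimum count of 10 and minimum total of 15, TMM, glmQLFit and glmQLFTest, two-sided, threshold 0.05). SE was the log2 fold change over the root of the F statistic. A prior count of 2 entered log2 CPM. The fit was tested on simulated data with log2 changes of 1 and 2 in either direction in genes above 5 CPM. These are larger than the change of Ccl12, so the simulation does not show how well changes of that size are found. Groups came from the response label, and tumors are numbered in accession order. The labels give 1 tumor per sample and no batch. Alternatives were RLE scaling, DESeq2 1.42.0, limma-voom 3.58.1, other filters and thresholds, and each tumor left out. Named genes were the 10 chemokines, the receptors and scavengers listed, and from other lists the genes that passed or at most 5 with the smallest p. Epcam, Krt18, Epx, Prg2, Il4, Il13, Csf1r, Mertk, Mrc1 and Gm17268 fall outside this rule and were named after their values were seen. The members and lists were chosen with earlier results of these data known. Exon lengths and positions came from GENCODE M21. The gene antisense to Ccl2, Gm17268, had 0 counts in every tumor. Protein sequences were not used here, and some items of the lists are not reported here.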

Additional observations from a re-analysis of the deposited data

Results flagged for a closer look

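Of 34 groups of log2 CPM values (10 chemokines and 7 receptors or scavengers in 2 groups), 3 had 1 tumor set apart from the others, where chance gives about 1.7. Each gap below is the distance to the closest tumor as a share of the whole spread of its group. Ccl8 in non-responder 1 lay below the other non-responders with a gap of 0.846 of the range, at 123.5 CPM where the others were at 299.4 to 351.9 CPM. Ccl7 in responder 6 lay below the other responders with a gap of 0.645, at 19.0 CPM where the next was at 28.7 CPM. Ackr2 in non-responder 4 lay below the other non-responders with a gap of 0.866, at 0.181 CPM where the next was at 0.523 CPM.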

How the results depend on the processing

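The 1293 genes, 1 chemokine and 4 receptor, other chemokine and inducer genes called became 2584, 5 and 9 by DESeq2, which added Ccl3, Ccl4, Ccl8 and Ccl11, and 2999 genes and 4 chemokines at an adjusted p under 0.1. With 1 tumor left out the 3 counts ranged from 0 to 1897, 0 to 3 and 0 to 6. DESeq2 was run on all 36009 genes without the edgeR filter on low counts. Its 2584 calls are thus not a share of the 16041 genes that edgeR tested. The DESeq2 count of 5 of 10 chemokines has no such share beside it, and the reading of 1 as near the share holds for edgeR. Without non-responder 4, edgeR called 0 genes, with 4106 at an unadjusted p under 0.05. RLE scaling, limma-voom and both other filters stayed within 1.5 times on all 3 counts. The sign changed for Ccl9 by limma-voom (0.0073) and without non-responder 1 (-0.36 to 0.21 with 1 tumor left out), and for Ackr2 without non-responder 4 (-0.078 to 0.38). The cause was not tested. Ccl12 was lower in 15 of 15 alternatives and passed in 10. No paired analysis was possible because tumors are numbered in accession order only and the labels link no responder to a non-responder. Estimates for genes of a few CPM, such as Ccr3, Ccr8 and Ackr2, rest on few counts.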

Other observations

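Non-responder 4 combined the highest values of both eotaxins with the highest values of some related genes, which were picked out after the values were seen and carry no test. The type 2 cytokine Il13 was at 0.513 CPM there and at 0.0783 to 0.219 CPM in the other 9 tumors. These values rest on 17 estimated counts there and at most 7 elsewhere, and the filter on low counts removed the gene. Siglecf, an eosinophil and macrophage lectin, was at 1.63 CPM there and at 0.206 to 1.19 CPM elsewhere. Il4, Prg2 and Epx were also highest in non-responder 4, at 1.81, 0.181 and 0.0603 CPM, Prg2 and Epx on 6 and 2 estimated counts. The eotaxin receptor Ccr3 was not highest there, at 3.11 CPM against 3.64 CPM in non-responder 3. Nor was the eosinophil marker Il5ra, at 0.784 CPM against 0.905 CPM in responder 2. Ccl12 was also highest in this tumor, while Ccl3 and Ccl4 were at their lowest.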
